A study of Mus musculus with 6 samples.

Results

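The genes described here are 39 genes of sugar breakdown and oxygen sensing, followed in bone marrow-derived macrophages of mice lacking *Lcn10* (Lcn10-KO) and of wild-type (WT) mice. They were taken by symbol from the table of 24972 rows: 17 enzymes of glycolysis and lactate formation, 2 enzymes that set the level of fructose 2,6-bisphosphate, 3 genes of the pyruvate dehydrogenase step, 7 enzymes of the pentose phosphate pathway, 9 genes of oxygen sensing and of the response to low oxygen, and *Mif*. All 39 were found, and all 39 passed the filter on low values that left 12091 genes for testing. Both groups were untreated primary macrophages, grown out of marrow in medium with supernatant of L929 fibroblasts, a source of macrophage colony-stimulating factor. RNA was sequenced from 3 Lcn10-KO and 3 WT libraries. The labels give no strain, age, sex or kind of knockout allele, and leave out whether each library is a different mouse. The spread behind the p-values is therefore that of the libraries and may be technical. Without a stated strain, genotype and genetic background cannot be told apart in any gene below. The comparison asks how the transcripts of these pathways differ between Lcn10-KO and WT macrophages at rest.

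Values are normalized counts, read counts per gene that the authors scaled between libraries. Totals lay between 20476700 and 20636300 in the 6 libraries, and the value of a single read put the depth at about 19300000 to 24400000 reads in Lcn10-KO and 18000000 to 24900000 in WT. *Lcn10* was listed at 0 in all 6 libraries, so the targeted gene cannot check the genotype labels. The 8 macrophage markers were all detected, with summed values of 293764 to 308309 in Lcn10-KO and 280139 to 290881 in WT. These sums did not overlap. By the limma test described below, 2 of the 8 markers were called higher and 2 lower in Lcn10-KO. Of all genes tested, 9.84% were called. Summed markers of other cells lay at 3784 to 4268 in Lcn10-KO and 2882 to 4470 in WT for fibroblasts, 402 to 441 in Lcn10-KO and 336 to 463 in WT for neutrophils, 307 to 699 in Lcn10-KO and 318 to 440.0 in WT for endothelial cells, and at most 18.1 in any library for dendritic, lymphoid, erythroid and mast cell markers. At 0 in all 6 libraries were 1 of 9 neutrophil markers (*Ly6g*), 1 of 6 lymphocyte markers (*Nkg7*) and 4 of 6 erythroid markers. The same held for 1 of 5 mast cell and basophil markers (*Fcer1a*). The other markers of these lists were above 0 in at least 1 library.

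Glycolysis splits glucose into pyruvate in the cytosol and yields ATP, and lactate dehydrogenase turns pyruvate into lactate so that the pathway can go on without oxygen. The pentose phosphate pathway branches off at glucose 6-phosphate, makes NADPH in its oxidative arm and exchanges sugar carbons with glycolysis in its non-oxidative arm. Hypoxia-inducible factor 1 alpha (HIF-1α), the product of *Hif1a*, is marked for destruction by prolyl hydroxylases while oxygen is present, and in low oxygen it drives transcription of glycolytic enzymes among many others. Macrophages activated by bacterial products are known to rely on glycolysis and HIF-1α.

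Of the 39 genes, 7 were lower and 2 higher in Lcn10-KO macrophages. *Hk1*, *Aldoa*, *Pgk1*, *Pkm*, *Taldo1*, *Hif1a* and *P4ha1* fell, with changes of the mean from −10.4% for *Hif1a* to −21.6% for *P4ha1*, whereas *Hk3* rose by 12.3% and *Ldhb* by 53.6%. The test was limma on log2(value + 1) over all genes tested, with a Benjamini-Hochberg adjusted p under 0.05 as the threshold. The 9 genes called make 23.1% of the 39, against 9.84% of all genes tested, and 5.14% of all genes were called lower and 4.7% higher. The 39 genes were chosen with earlier results of these data known. With a minimum value of 50 in 3 libraries, 2 of 37 members were called higher and 8 lower, against 12.1% of all genes tested. Among the 17 genes of glycolysis and lactate formation 4 fell, 2 rose and 11 did not pass, among the 7 pentose phosphate genes 1 fell, and among the 9 genes of oxygen sensing and hypoxia 2 fell. The median log2 fold change, Lcn10-KO minus WT, was −0.12 over the 39 genes and −0.00 over all genes tested, and 28 of the 39 point estimates lay below 0. The 3 Lcn10-KO values all lay below the 3 WT values in 16 of the 39 genes and above them in 3, together 48.7%, against 32.4% of all genes tested. In bulk RNA, fewer cells that carry a transcript and less of it per cell cannot be told apart.

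**Figure D1:**
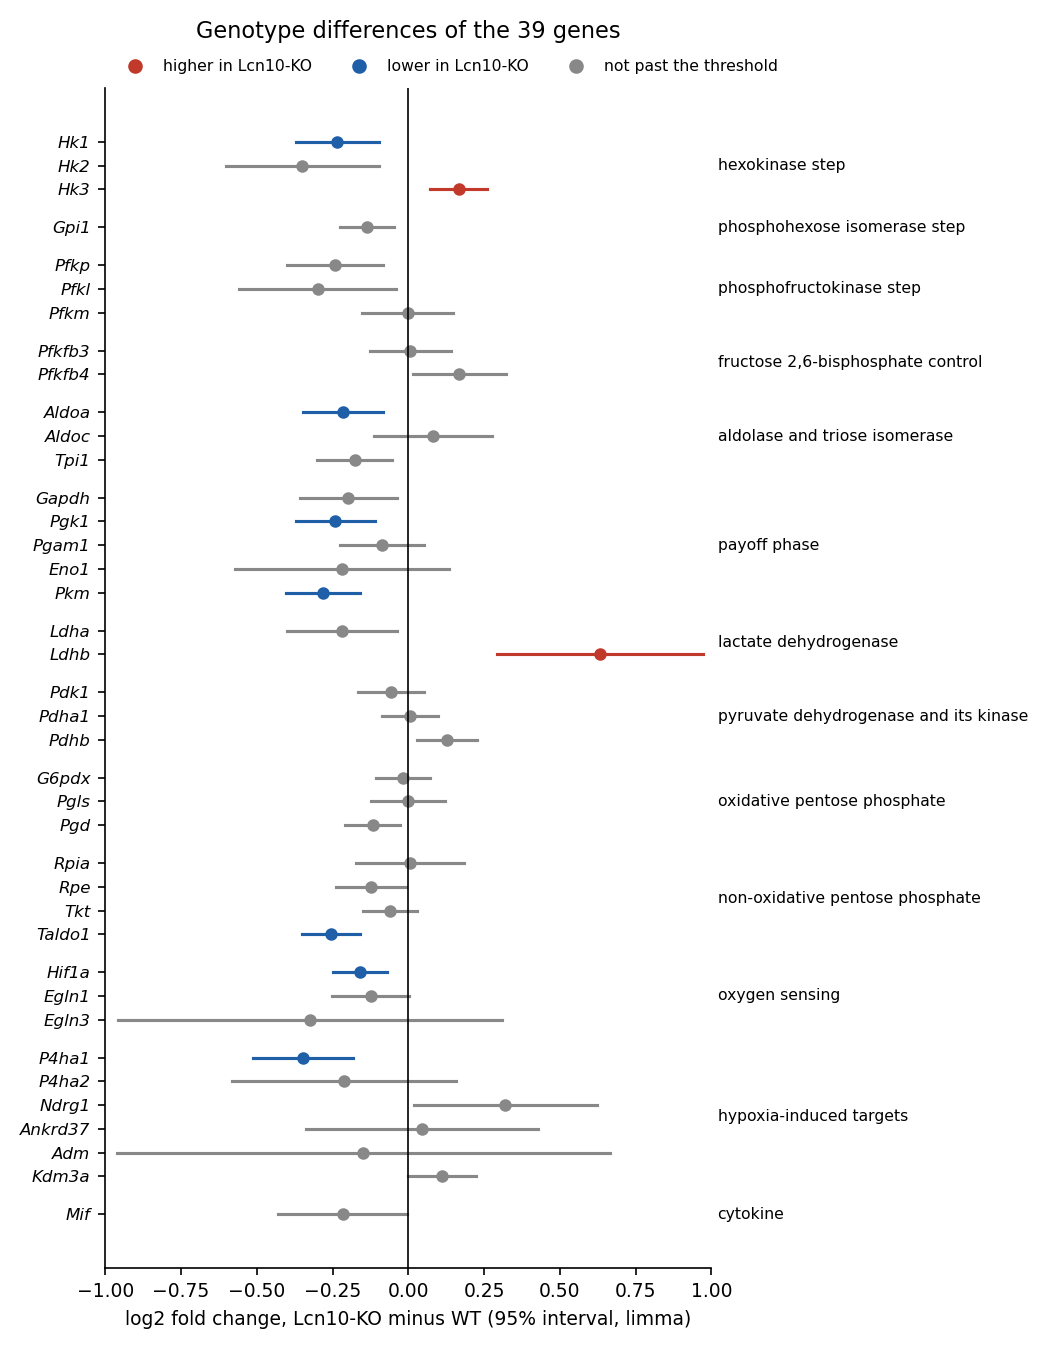
Log2 fold change of the 39 genes, Lcn10-KO minus WT, with 95% intervals from limma, ordered by pathway step. Red marks the 2 genes past the threshold that were higher in Lcn10-KO, blue the 7 that were lower and grey the other 30. Most glycolytic enzymes lie left of 0, and *Ldhb* lies farthest right at 0.63.

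WT replicate 1 stood apart from the other WT libraries in glycolysis. It held the highest value of all 6 libraries in 12 of the 17 glycolytic genes and in 22 of the 39 genes, against 29.1% of all genes tested. The median deviation of the 17 glycolytic genes from the mean of the 6 libraries was −0.07, −0.06 and −0.14 log2 units in Lcn10-KO replicates 1 to 3 and 0.25, 0.00 and 0.05 in WT replicates 1 to 3. All 9 called genes stayed past the threshold without this library, with smaller log2 fold changes in 7 of them. The 39 genes then had a median of −0.08, and *Hk2* (−0.20, limma adjusted p = 0.0337) and *Pfkp* (−0.15, adjusted p = 0.0397) joined the genes called lower. The summed fibroblast markers were highest in the same library, at 4470, against 2882 and 3835 in WT replicates 2 and 3. They were 4268, 3883 and 3784 in Lcn10-KO replicates 1 to 3, so Lcn10-KO replicate 1 came next. The part of these markers in the result was not tested.

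**Figure D2:**
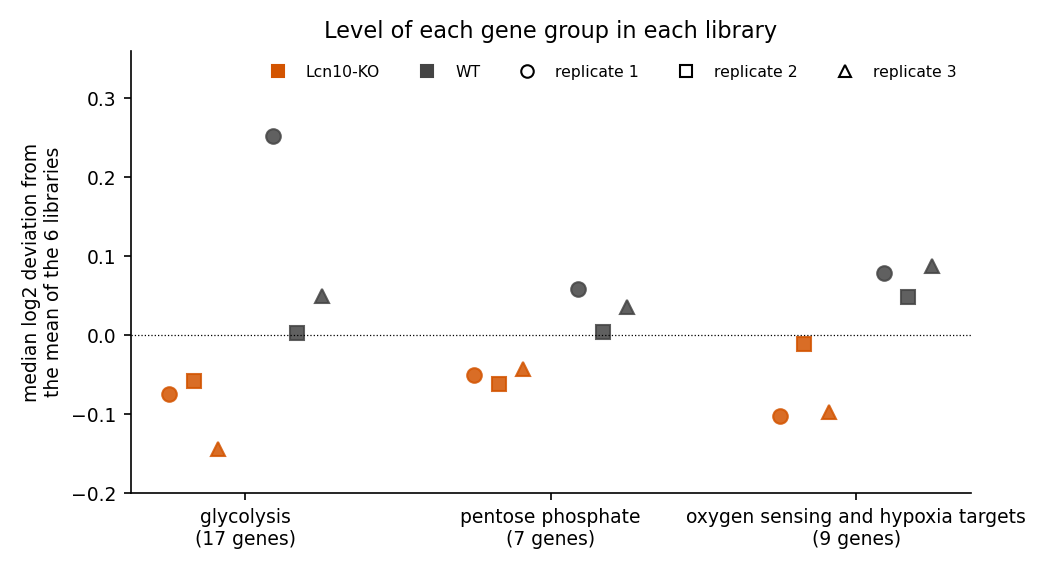
Median log2 deviation of each gene group from the mean of the 6 libraries, for Lcn10-KO (orange) and WT (grey) libraries, with replicates 1, 2 and 3 as circles, squares and triangles. In glycolysis WT replicate 1 lies at 0.25, above the other 2 WT libraries, while the 7 pentose phosphate genes show a narrow spread in both genotypes.

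**Figure D3:**
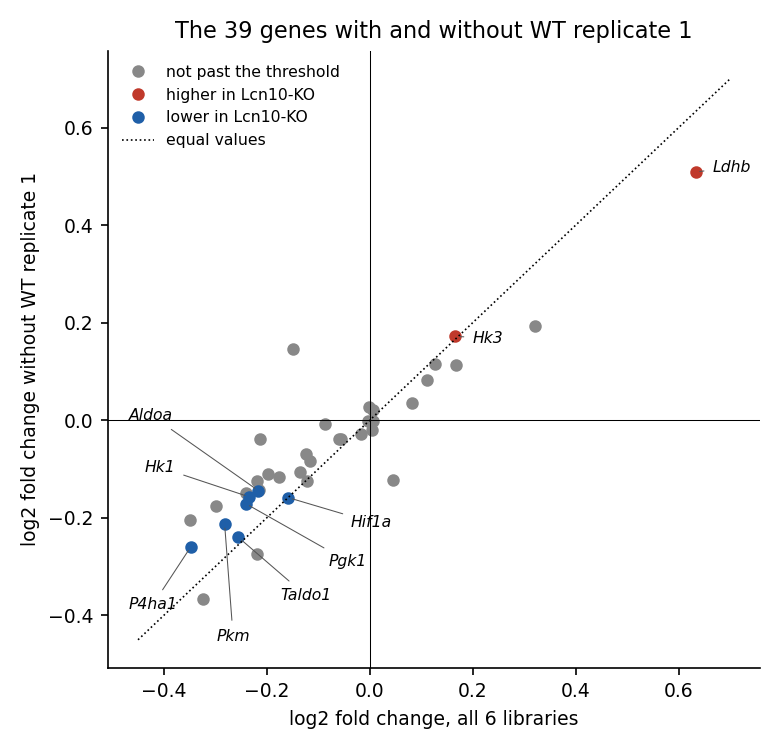
Log2 fold change of each of the 39 genes in all 6 libraries (x axis) and without WT replicate 1 (y axis), with the 9 called genes named and the dotted line marking equal values. Most genes below 0 lie above the line, nearer to 0 once that library is left out, while *Hif1a* and *Hk3* lie close to the line.

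Promoter sequences are shown for the called genes that hold the letters ACGTG, a form of the core of the hypoxia response element bound by HIF-1α with its partner ARNT. They are the 250 bases before an annotated start, on the strand of the gene, from RefSeq on GRCm38.p6, with ACGTG or its reverse complement CACGT in capitals. Both overlap in the palindrome CACGTG, an E-box that other factors bind. For *Aldoa* and *Pkm* the start shown is one of several listed, and the outermost start of each has no match and is not shown. For *Aldoa*, *Pkm* and *Hif1a* the start shown lies inside the span of the gene given below.
*Hk3*, chr13:55021386-55021635, minus strand: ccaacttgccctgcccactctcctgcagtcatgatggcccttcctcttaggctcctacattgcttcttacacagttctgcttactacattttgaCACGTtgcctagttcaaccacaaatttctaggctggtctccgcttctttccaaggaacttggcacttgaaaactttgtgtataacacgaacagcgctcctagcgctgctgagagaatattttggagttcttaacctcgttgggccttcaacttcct
*Aldoa*, chr7:126799255-126799504, minus strand: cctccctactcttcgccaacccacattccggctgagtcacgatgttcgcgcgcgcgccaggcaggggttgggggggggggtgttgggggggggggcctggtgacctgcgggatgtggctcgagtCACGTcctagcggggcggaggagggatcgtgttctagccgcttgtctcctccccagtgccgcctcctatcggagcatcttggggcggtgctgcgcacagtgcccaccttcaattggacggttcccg
*Pgk1*, chrX:106186850-106187099, plus strand: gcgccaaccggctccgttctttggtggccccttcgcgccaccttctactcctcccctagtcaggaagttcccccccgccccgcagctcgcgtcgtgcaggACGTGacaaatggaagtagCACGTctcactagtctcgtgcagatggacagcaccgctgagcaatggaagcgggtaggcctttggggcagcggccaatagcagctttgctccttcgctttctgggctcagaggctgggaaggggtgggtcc
*Pkm*, chr9:59656977-59657226, plus strand: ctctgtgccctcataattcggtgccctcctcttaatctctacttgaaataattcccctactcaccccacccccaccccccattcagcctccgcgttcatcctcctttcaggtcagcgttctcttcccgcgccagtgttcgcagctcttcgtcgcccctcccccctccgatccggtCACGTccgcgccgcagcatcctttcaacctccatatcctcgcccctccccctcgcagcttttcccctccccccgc
*Hif1a*, chr12:73907617-73907866, plus strand: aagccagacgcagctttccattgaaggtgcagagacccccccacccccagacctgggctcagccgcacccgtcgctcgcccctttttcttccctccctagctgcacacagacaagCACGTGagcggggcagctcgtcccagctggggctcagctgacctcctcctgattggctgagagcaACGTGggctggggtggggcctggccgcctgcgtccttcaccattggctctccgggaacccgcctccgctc
*P4ha1*, chr10:59323046-59323295, plus strand: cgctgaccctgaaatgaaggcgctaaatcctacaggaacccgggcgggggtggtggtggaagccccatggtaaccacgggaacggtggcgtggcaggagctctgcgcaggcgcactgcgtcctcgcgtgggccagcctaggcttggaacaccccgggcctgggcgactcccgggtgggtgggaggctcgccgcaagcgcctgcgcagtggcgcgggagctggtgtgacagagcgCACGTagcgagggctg

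The match lies 156 bases before the start in *Hk3*, 126 in *Aldoa*, 75 in *Pkm* and 16 in *P4ha1*. *Pgk1* has matches at 150 and 131 bases, and *Hif1a* has a palindrome that begins at 135 bases and a further match at 70. *Hk1*, *Ldhb* and *Taldo1* have no such letters in their windows. Starts were matched for 38 of the 39 genes (not *Ndrg1*), in 54 windows, and 19 of these windows (35.2%) held ACGTG on either strand, against 16.6% of all 32851 windows and 21.7% of those of tested genes. Among the 9 called genes 7 of 13 windows held it, of which 2 in *Aldoa* share a single match, and among the other genes 12 of 41 did. A further spelling of the core, GCGTG, was counted too, and 77.8% of the member windows held ACGTG or GCGTG, against 38.6% of all windows and 55.6% of those of tested genes. Counted this way, the share was 76.9% for windows of called genes and 78% for windows of the other genes. The genes were gathered partly because they respond to hypoxia, and a match in letters is not a bound site.

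Hexokinases trap glucose as glucose 6-phosphate, and the 3 measured forms differed in direction. *Hk1*, the form of most tissues that docks on mitochondria (ENSMUSG00000037012.18, chromosome 10, 62268855 to 62379908, minus strand, GRCm38), had 2168, 2281 and 2162 normalized counts in Lcn10-KO replicates 1 to 3, against 2886, 2513 and 2401 in WT replicates 1 to 3. *Hk3*, the form of myeloid cells (ENSMUSG00000025877.14, chromosome 13, 55005985 to 55021385, minus strand), had 6067, 6588 and 6584 in Lcn10-KO, against 5754, 5725 and 5651 in WT. Neither gene showed an overlap between the genotypes. *Hk1* fell with a log2 fold change of −0.23 ± 0.06 (SE, limma adjusted p = 0.0391), and *Hk3* rose with 0.17 ± 0.04 (adjusted p = 0.0330). *Hk2*, the form that hypoxia and insulin induce, had 683, 677 and 694 in Lcn10-KO, against 1069, 781 and 797 in WT. Its groups did not overlap either, but it missed the threshold (−0.35 ± 0.11, adjusted p = 0.0832).

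Per kilobase of transcript, *Hk3* was the most abundant hexokinase in both genotypes. It made 74.1 ± 0.779% of the per-kilobase sum of the 3 genes in Lcn10-KO and 68.1 ± 2.26% in WT (mean ± SD, n = 3 each). The share of *Hk1* was 21.3 ± 0.685% in Lcn10-KO and 25.8 ± 1.43% in WT, and that of *Hk2* 4.63 ± 0.188% in Lcn10-KO and 6.11 ± 0.865% in WT. None of the 3 shares overlapped between the genotypes. For *Hk3* this follows from the counts above, since *Hk3* lay wholly higher and the other forms wholly lower in Lcn10-KO. The 3 shares add up to the whole, so they are not separate results. The shares depend on the length used, and with the union of all exons *Hk1* made 12.2% in Lcn10-KO and 15.2% in WT, and *Hk3* 82.3% in Lcn10-KO and 77.5% in WT. With 3 libraries against 3, an exact two-sided permutation test cannot go below p = 0.1, so shares were not tested. Exons of *Hk1* and *Hk3* overlap those of *Hk1os* and *Unc5a* on the opposite strand, which reached at most 7.45 and 28.7 normalized counts in any library. Those of *Aldoa* overlap *Fam57b*, which reached at most 5.23. Exons of *Pkm* overlap *Gm49759* on the same strand. Those of *Hif1a* overlap *Gm49321* on the same strand and *Gm15283* on the opposite strand. These neighbours of *Pkm* and *Hif1a* have no listed values, so their reads could not be checked.

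**Figure D4:**
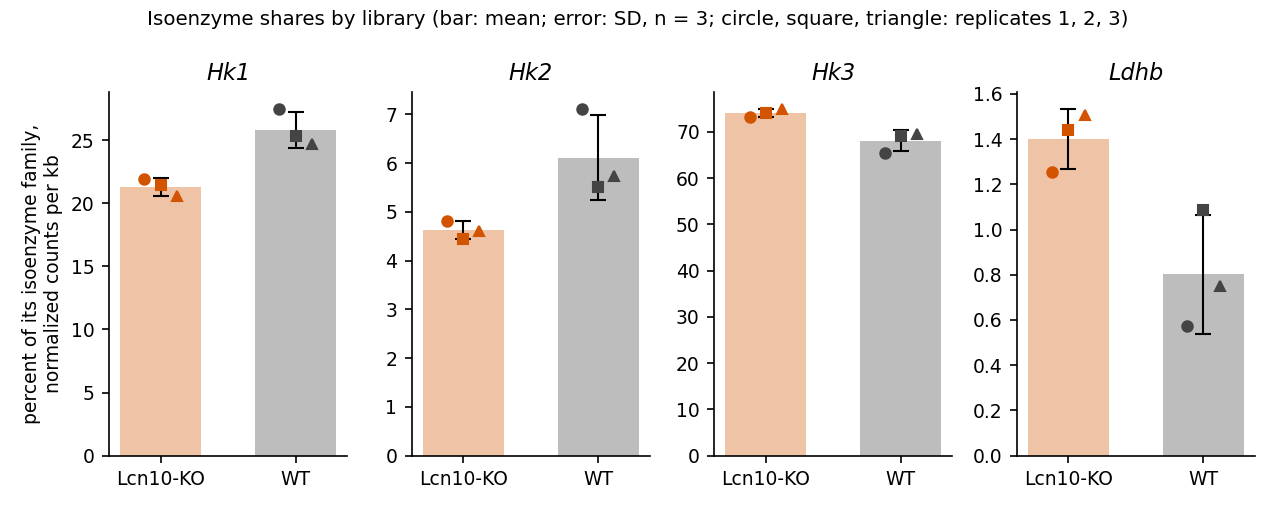
Share of *Hk1*, *Hk2* and *Hk3* in the hexokinases and of *Ldhb* in the lactate dehydrogenases, in normalized counts per kilobase of transcript, with bars at the mean, error bars for the SD and 1 point per library (n = 3 each). The panels have axes of different length, each starting at 0, and in all 4 panels the Lcn10-KO libraries lie on one side of the WT libraries. For *Hk3* and *Ldhb* this follows from their counts and those of the other forms. Shares in other families are not shown, and those of *Pfkp*, *Pfkl*, *Aldoa* and *Aldoc* overlapped between the genotypes.

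Phosphoglucose isomerase and phosphofructokinase, which commits sugar to glycolysis, follow in the pathway. *Gpi1*, the isomerase, lay at 9361 to 9600.1 in Lcn10-KO and 10183 to 10889 in WT and did not pass (log2 fold change −0.14 ± 0.04, limma adjusted p = 0.0531). *Pfkp*, the platelet form of phosphofructokinase, had 2611, 2497 and 2634 in Lcn10-KO, against 3459, 2792 and 2933 in WT. *Pfkl*, the liver form, had 1250.4, 1356 and 1161 in Lcn10-KO, against 1829.6, 1393 and 1439 in WT. Both had separate groups, with WT replicate 1 highest, and neither passed (−0.24 ± 0.07, adjusted p = 0.0591, and −0.30 ± 0.11, adjusted p = 0.141). *Pfkm*, the muscle form, had 356, 349 and 365 in Lcn10-KO, against 358, 365 and 349 in WT. These values overlapped fully, with a 95% interval of the log2 fold change from −0.15 to 0.15. Per kilobase, *Pfkp* made 57.5 ± 1.93% of the family in Lcn10-KO and 57.7 ± 0.453% in WT. *Pfkm* made 11.4 ± 0.336% in Lcn10-KO and 9.79 ± 1.12% in WT. Its share did not overlap although its counts did, because a share also moves with the other forms. The bifunctional enzymes that set fructose 2,6-bisphosphate, an activator of phosphofructokinase, did not pass either. *Pfkfb3* had a log2 fold change of 0.01 (95% interval −0.13 to 0.14) and *Pfkfb4* one of 0.17 (0.02 to 0.32, adjusted p = 0.152).

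In the aldolase and triose phosphate steps, *Aldoa* was lower in Lcn10-KO. This main aldolase (ENSMUSG00000030695.16, chromosome 7, 126795234 to 126800751, minus strand) had 24109.8, 23870.4 and 22253 normalized counts in Lcn10-KO replicates 1 to 3, against 30026, 25550.5 and 26170.3 in WT. All Lcn10-KO values lay below all WT values, and the log2 fold change was −0.22 ± 0.06 (SE, limma adjusted p = 0.0462), close to the threshold. *Aldoc*, the brain form, had 339, 348 and 357 in Lcn10-KO, against 308, 305 and 378 in WT. It overlapped between the genotypes (0.08 ± 0.09, adjusted p = 0.619) and made 0.801% of the aldolases per kilobase in Lcn10-KO and 0.658% in WT. *Tpi1*, triose phosphate isomerase, missed the threshold with separate groups (−0.18 ± 0.06, adjusted p = 0.0713).

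The later steps of glycolysis recover ATP, and in these steps *Pgk1* and *Pkm* fell. *Pkm*, pyruvate kinase of muscle and most other tissues (ENSMUSG00000032294.17, chromosome 9, 59656368 to 59679375, plus strand), had 56735, 54577 and 54991 normalized counts in Lcn10-KO replicates 1 to 3, against 74179, 62905 and 65570.1 in WT. The values of the Lcn10-KO libraries were close to each other and below every WT value, at 55434 ± 1145 in Lcn10-KO and 67551 ± 5892 in WT (mean ± SD, n = 3 each). Its log2 fold change was −0.28 ± 0.06 (limma adjusted p = 0.0122), and without WT replicate 1 it was −0.21 (adjusted p = 0.000968). *Pkm* was also the most abundant of the 39 genes per kilobase, at 22794 in Lcn10-KO and 27776 in WT. Gene-level values do not tell its M1 and M2 splice forms apart. *Pgk1*, phosphoglycerate kinase, which makes the first ATP of the pathway (ENSMUSG00000062070.12, chromosome X, 106187100 to 106203699, plus strand), had 14579, 15361 and 14225 in Lcn10-KO, against 19157, 16136 and 17004 in WT. Here too no Lcn10-KO value reached a WT value (−0.24 ± 0.06, adjusted p = 0.0309).

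*Gapdh*, the dehydrogenase between aldolase and *Pgk1* that is often used as a reference gene, lay at 11471 to 12409 in Lcn10-KO and 12742 to 15612 in WT. It did not pass (log2 fold change −0.20 ± 0.07, limma adjusted p = 0.114), although the groups did not overlap. Its log2 fold change was −0.11 without WT replicate 1, and without WT replicate 2 it was −0.26 and passed (adjusted p = 0.0314). *Pgam1*, phosphoglycerate mutase, overlapped between the genotypes and did not pass (−0.09 ± 0.06, adjusted p = 0.420). *Eno1*, enolase 1, had 4057, 4678 and 4763 in Lcn10-KO, against 4830.0, 4646 and 6343 in WT, and did not pass (−0.22 ± 0.14, adjusted p = 0.401).

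The value of *Eno1* is uncertain because the table also lists *Eno1b*, a copy whose transcript matches it at 99.5% over 1736 bases. *Eno1b* had 14260, 13815 and 12697 normalized counts in Lcn10-KO replicates 1 to 3, against 20739, 15776 and 15095 in WT, more than *Eno1* itself. Their sum was 18317, 18493 and 17460.2 in Lcn10-KO, against 25569, 20422 and 21438 in WT, so that the groups of the sum did not overlap. Fitted as a single gene, an alternative added after the data were seen, the sum fell by 0.31 ± 0.08 on the log2 scale (limma adjusted p = 0.0392). The number of the 39 genes called lower was then 8. Other members with annotated near-identical copies, such as *Gapdh* with 78 and *Pgk1*, *Ldha* and *Mif* with 4 each, can share reads as well. The 3 copies of *Gapdh* in the table reached at most 41.2 in any library.

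Lactate dehydrogenase showed opposite signs in its A and B forms. *Ldhb*, the B chain, which favours lactate oxidation (ENSMUSG00000030246.11, chromosome 6, 142490249 to 142507957, minus strand), had 132, 154 and 151 normalized counts in Lcn10-KO replicates 1 to 3, against 78.4, 118 and 87.3 in WT. Every Lcn10-KO value exceeded every WT value, and WT replicate 2 came nearest. The gene rose by 0.63 ± 0.16 on the log2 scale (SE, limma adjusted p = 0.0269). *Ldha*, the A chain, which favours lactate formation, had 14052, 14308 and 13320.0 in Lcn10-KO, against 18466, 14589 and 15689.6 in WT. It did not pass (−0.22 ± 0.08, adjusted p = 0.122) and came close to overlap, with WT replicate 2 near the Lcn10-KO libraries. Its log2 fold change was −0.12 without WT replicate 1, and without WT replicate 2 it was −0.29 and passed (adjusted p = 0.0174). *Ldhb* remained a small part of the pair, at 1.40 ± 0.132% of their per-kilobase sum in Lcn10-KO and 0.802 ± 0.262% in WT, or 2.16% in Lcn10-KO and 1.24% in WT with the union of all exons as length.

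Taken as a sum, the 9 genes *Gpi1*, *Aldoa*, *Tpi1*, *Gapdh*, *Pgk1*, *Pgam1*, *Eno1*, *Pkm* and *Ldha* took 0.743 ± 0.0144% of the total of a library in Lcn10-KO and 0.875 ± 0.0765% in WT (mean ± SD, n = 3 each). The values were 0.752%, 0.751% and 0.727% in Lcn10-KO, against 0.960%, 0.810% and 0.856% in WT. The spread between WT libraries was the wider one, with WT replicate 1 highest. The sum leaves out *Eno1b*, which had a mean of 13590 normalized counts in Lcn10-KO and 17203 in WT.

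Pyruvate enters mitochondria and is turned into acetyl-CoA by the pyruvate dehydrogenase complex, and none of its 3 genes among the 39 passed limma. *Pdha1*, a subunit of the E1 enzyme, lay at 2480.0 to 2581 in Lcn10-KO and 2485 to 2594 in WT (log2 fold change 0.01, 95% interval −0.09 to 0.10). *Pdhb*, the other E1 subunit, had separate groups, at 1484 to 1542 in Lcn10-KO and 1365 to 1415 in WT, without passing (0.13 ± 0.05, adjusted p = 0.0911). *Pdk1*, a HIF-induced kinase that blocks the complex, had a log2 fold change of −0.06 (95% interval −0.17 to 0.05). *Pdhb* was the only one of the 3 with an unadjusted p under 0.05.

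In the pentose phosphate pathway 1 of 7 enzymes passed, *Taldo1*, transaldolase of the non-oxidative arm (ENSMUSG00000025503.5, chromosome 7, 141392199 to 141402968, plus strand). It had 9900.4, 9519.8 and 9073 normalized counts in Lcn10-KO replicates 1 to 3, against 11563, 10943 and 11485 in WT. The groups lay far apart compared with their spread. The log2 fold change was −0.25 ± 0.04 (SE, limma adjusted p = 0.00578), the smallest adjusted p among the 39 genes, and −0.24 without WT replicate 1. *Taldo1* kept its call in each of the 6 fits that left out a library. *Tkt*, transketolase, which works beside it, had −0.06 ± 0.04 (adjusted p = 0.382), and *Rpe* and *Rpia*, which interconvert the pentoses, had −0.12 ± 0.05 (adjusted p = 0.168, groups apart) and 0.00 ± 0.08 (adjusted p = 0.980). In the oxidative arm, *G6pdx*, the rate-limiting NADPH-forming enzyme, lay at 5339 to 5688 in Lcn10-KO and 5526 to 5666 in WT, with a 95% interval of the log2 fold change from −0.11 to 0.07. *Pgls*, the lactonase, overlapped too, and *Pgd*, the other NADPH-forming step, had separate groups without passing (−0.12 ± 0.04, adjusted p = 0.0946).

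Among the genes of oxygen sensing, *Hif1a* fell (ENSMUSG00000021109.13, chromosome 12, 73901375 to 73947530, plus strand). It had 2757, 2757 and 2896 normalized counts in Lcn10-KO replicates 1 to 3, against 3125, 3110.3 and 3147 in WT. The WT libraries differed by little, and WT replicate 1 did not stand apart in this gene. The log2 fold change was −0.16 ± 0.04 (SE, limma adjusted p = 0.0327) and −0.16 without WT replicate 1. HIF-1α is controlled chiefly at the protein level, which these data do not measure. *Egln1*, the main HIF prolyl hydroxylase and itself a HIF target, had 1274, 1302 and 1241 in Lcn10-KO, against 1496, 1279.8 and 1391 in WT. The groups overlapped, and it did not pass (−0.12 ± 0.06, adjusted p = 0.200). *Egln3*, a hypoxia-induced one, had 16.0, 32.2 and 17.7 in Lcn10-KO, against 24.9, 27.4 and 27.1 in WT, too low for a firm value (95% interval −0.96 to 0.31).

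The 6 hypoxia-induced targets did not move one way. *P4ha1*, the alpha 1 subunit of the collagen prolyl hydroxylase (ENSMUSG00000019916.14, chromosome 10, 59323296 to 59373304, plus strand), had 1986, 2116 and 1895 normalized counts in Lcn10-KO replicates 1 to 3, against 2872, 2360.1 and 2423 in WT. The groups did not overlap, and the gene fell by 0.35 ± 0.07 on the log2 scale (SE, limma adjusted p = 0.0202), the largest decrease among the genes called lower. *P4ha2*, the alpha 2 subunit, had 166, 184 and 181 in Lcn10-KO, against 261, 154 and 214 in WT. It overlapped and did not pass (−0.21 ± 0.17, adjusted p = 0.464). *Ndrg1*, a stress-response gene, had 1079, 1287 and 1228 in Lcn10-KO, against 801, 1109 and 986 in WT, with an opposite sign and no call (0.32 ± 0.13, adjusted p = 0.168). *Kdm3a*, a histone demethylase, and *Ankrd37* had log2 fold changes of 0.11 ± 0.05 (adjusted p = 0.190) and 0.05 ± 0.18 (adjusted p = 0.904). *Adm*, adrenomedullin, lay at 16.0 to 43.1 in Lcn10-KO and 22.8 to 43.2 in WT, and its 95% interval ran from −0.96 to 0.66. *Mif*, a cytokine whose gene is known to respond to HIF-1α, did not pass (−0.22 ± 0.09, adjusted p = 0.185).

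**Figure D5:**
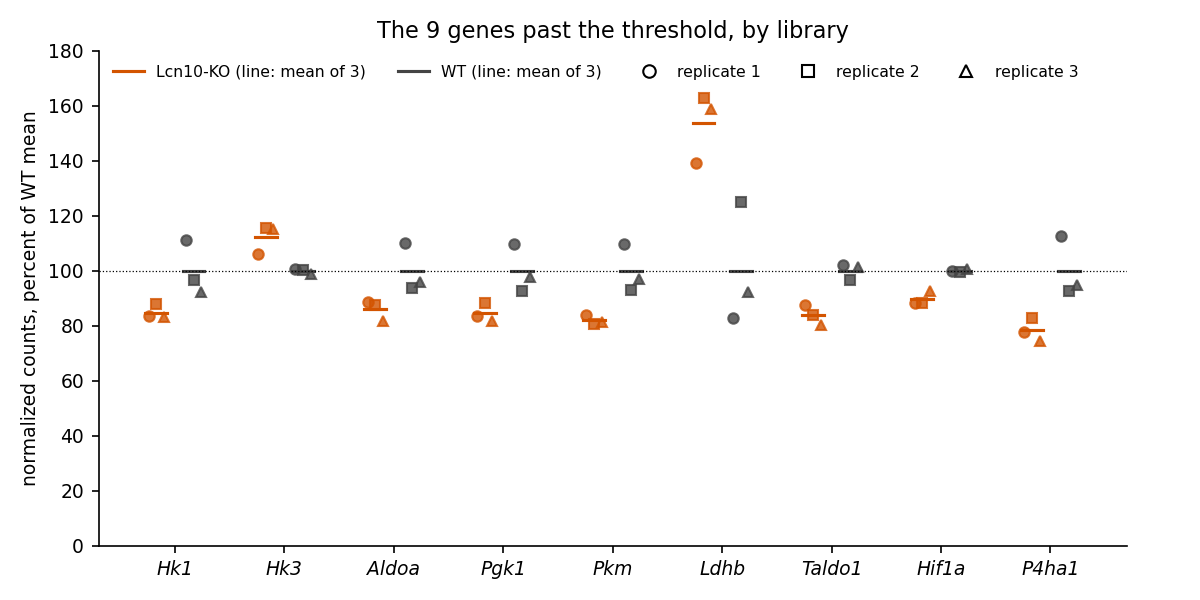
Normalized counts of the 9 called genes in each library, as a percentage of the WT mean, for Lcn10-KO (orange, left) and WT (grey, right), with lines at the mean of 3 libraries. No gene shows an overlap of the genotypes, WT replicate 1 (grey circles) lies well above the other WT libraries in *Hk1*, *Aldoa*, *Pgk1*, *Pkm* and *P4ha1*, and *Taldo1* and *Hif1a* show tight WT groups.

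The 9 calls differed in how far they rest on single libraries. *Pkm* and *P4ha1* kept theirs in 4 of 6 fits that left out a library, *Hk1* and *Hk3* in 3, and *Aldoa*, *Pgk1*, *Ldhb* and *Hif1a* in 2. *Hk1* lost its call when any 1 Lcn10-KO library was left out (limma adjusted p = 0.121, 0.101 and 0.145 without replicates 1, 2 and 3), and *Hk3* without WT replicate 3 (0.0798) or Lcn10-KO replicate 2 or 3 (0.163 and 0.131). *Pkm* was lost without Lcn10-KO replicate 2 or 3 (0.0717 and 0.0704) and *P4ha1* without Lcn10-KO replicate 1 or 3 (0.0684 and 0.0913). The other 4 were lost without WT replicate 3 (0.0591 to 0.0759) or when any 1 Lcn10-KO library was left out (0.0510 to 0.170). The number of the 39 genes called lower was 9, 15 and 4 without WT replicates 1, 2 and 3, and 2, 2 and 1 without Lcn10-KO replicates 1, 2 and 3. In the same fits 9.62%, 13.8% and 7.37% of all genes tested were called without WT replicates 1, 2 and 3, and 4.71%, 1.72% and 1.46% without Lcn10-KO replicates 1, 2 and 3, so the count of members moved with that of the whole table, except without WT replicate 1. Without WT replicate 2, the genes that joined the lower calls were *Hk2*, *Gpi1*, *Pfkp*, *Tpi1*, *Gapdh*, *Ldha*, *Egln1* and *P4ha2* (adjusted p = 0.0120 to 0.0464), and *Ndrg1* joined the higher ones (0.43, adjusted p = 0.0343). Without the mean-variance trend none of the 9 passed (adjusted p = 0.106 to 0.185), when 14 genes passed in the whole table. No log2 fold change of the 9 changed sign in any of the 16 alternatives.

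Other genes of the same pathways were read from lists of genes that are not among the 39. Of 25 tested genes of further glycolysis and pyruvate enzymes, 2 rose and 1 fell by limma, which is 12% called, near the 9.84% of all genes tested. *Eno2*, the neuronal enolase, had 275, 308 and 313 normalized counts in Lcn10-KO, against 204, 221 and 215 in WT (log2 fold change 0.48 ± 0.09, adjusted p = 0.00750). *Adpgk*, an ADP-dependent glucokinase, fell by 0.38 ± 0.07 on the log2 scale (adjusted p = 0.00572), and *Pdp1*, the phosphatase that reactivates pyruvate dehydrogenase, rose by 0.39 ± 0.09 (adjusted p = 0.0281). The median of this list was −0.04. *Adpgk* lost its call without Lcn10-KO replicate 3, *Eno2* without Lcn10-KO replicate 2 or 3 and *Pdp1* when any 1 Lcn10-KO library was left out (adjusted p of up to 0.113).

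Of 12 tested genes of further pentose phosphate and NADPH enzymes, 2 rose and 1 fell, which is 25% called, against 9.84% of all genes tested, with a list median of 0.03. *Nnt*, which makes NADPH in mitochondria, had 1457, 1377 and 1425 normalized counts in Lcn10-KO, against 665, 691 and 744 in WT (log2 fold change 1.02 ± 0.06, limma adjusted p = 1.04e-06). All Lcn10-KO values lay far above all WT values. The labels give no strain, so genotype and genetic background cannot be told apart in this difference or in that of any other gene. Neither was tested. *Idh1*, a cytosolic NADPH-forming isocitrate dehydrogenase, rose by 0.51 ± 0.11 on the log2 scale (adjusted p = 0.0402), and *H6pd*, which runs the oxidative pentose steps in the endoplasmic reticulum, fell by 0.26 ± 0.05 (adjusted p = 0.00920). *Nnt* kept its call in all 16 alternatives. *Idh1* lost it when any 1 Lcn10-KO library was left out and *H6pd* without Lcn10-KO replicate 2 or 3.

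Of 31 tested genes of further hypoxia targets, 1 rose and 3 fell, which is 12.9% called, near the 9.84% of all genes tested, and the median was −0.01. *Plod1*, a collagen lysyl hydroxylase, *Ero1l*, a disulfide-forming oxidase of the endoplasmic reticulum, and *Pdgfb*, a growth factor chain, fell by 0.22 ± 0.06, 0.21 ± 0.06 and 0.27 ± 0.07 on the log2 scale (limma adjusted p = 0.0340, 0.0343 and 0.0291). *Bnip3l*, a receptor for the removal of mitochondria, rose by 0.19 ± 0.05 (adjusted p = 0.0377). All 4 lost their calls in at least 3 of the 6 fits that left out a library, and each did so when any 1 Lcn10-KO library was left out (adjusted p of up to 0.144). *Bnip3l* and *Ero1l* also lost theirs without WT replicate 1, and *Pdgfb* without WT replicate 2. Of 19 tested regulators of HIF and of glycolysis, 0 passed limma and 5 had an unadjusted p under 0.05, as had 3180 of the 12091 genes tested. *Myc*, a factor that drives glycolytic genes, came nearest with −0.45 ± 0.12 (adjusted p = 0.0528). In the tricarboxylic acid cycle 1 of 20 genes passed, *Idh3a*, a subunit of the NAD-linked isocitrate dehydrogenase, which fell by 0.22 ± 0.05 (adjusted p = 0.0237) and lost its call without Lcn10-KO replicate 2 or 3. Without the mean-variance trend *Nnt* (adjusted p = 0.0112) was the one gene named from these lists that passed.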

How the data were processed

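RNA of 6 libraries was measured, 3 per genotype. The values used are normalized counts, a signal scaled by the authors before they deposited it, with fractions and near-equal library totals. Tools named in the submitters' processing notes are bcl2fastq, STAR 2.6.1a, DESeq2 and Salmon 0.11.2, with mm10 listed as the build and no order stated, while annotation and strand setting were not given in the sources used here. Low values were multiples of 1 read in 91.4% to 93.3% of cases (tolerance 0.1 reads). Whole reads were not recovered for higher values, so no test on reads was run.

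The test was limma 3.58.1 in R 4.3.3 on log2(value + 1), which understates changes of low genes. It used all genes that reached 10 in 3 or more libraries, a model of genotype alone, robust estimation and a mean-variance trend, with Benjamini-Hochberg adjustment over 12091 genes. The procedure was checked on simulated data, where it recovered 68% of genes changed 1.25-fold and 98% of those changed 2-fold. It also called 11 genes that had not been changed. The simulation gave all genes the same dispersion, which was set by hand and not estimated from these libraries. The simulation therefore does not check how calls rest on the mean-variance trend or on single libraries. Nor does it show what share of changes is found at the spread of these libraries.

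The members and lists were chosen with earlier results of these data known. Library values are given for called genes, other forms of their enzyme families, *Hif1a* and members 0.5 or more log2 units apart, and up to 4 called genes are named per other list, smallest p first. *Eno1*, *Eno1b*, *Ndrg1* and *Myc* were singled out after their values were seen. Positions, transcript length (longest APPRIS principal transcript) and copies (95% identity over 200 bases) came from GENCODE for GRCm38, to which 24464 of 24970 symbols matched.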

Additional observations from a re-analysis of the deposited data

How the results depend on the processing

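Quantile normalization, median-ratio rescaling, other filters on low values, other pseudocounts and the sum of *Eno1* with *Eno1b* left the counts of called genes within 1.5 times of the reported ones, and all 9 calls held in them. Without the mean-variance trend, 14 genes passed in the whole table and 0 and 0 of the 39 were called higher and lower. Leaving out a library gave 175 to 1664 called genes, 0 to 3 of the 39 higher and 1 to 15 lower, the fewest without Lcn10-KO replicate 3 and the most without WT replicate 2, and a median of −0.15 to −0.083. The labels do not say whether replicate numbers pair the libraries, and weak correlations of deviations did not settle it. They were 0.04, 0.07 and 0.01 for numbers 1, 2 and 3. Each Lcn10-KO library correlated best with the WT library of its number, but WT replicate 3 correlated best with Lcn10-KO replicate 1 (0.03). With a replicate block 12 of the 39 were called lower, when 1607 genes (13.3%) passed in the whole table against 1190 (9.84%) without it. With the block and the trends on GC content and transcript length removed, 1821 genes passed and 14 of the 39 were lower.

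Of the 39 genes, 31 kept their sign in all alternatives, and the 8 that did not lay near 0 or at low values and were not called. *Pgls* and *Rpia* turned to 0.0047 and −0.0086 under quantile normalization, *Pfkm* and *Rpia* to 0.00047 and −0.0066 with the GC and length trends removed, with and without the replicate block. Leaving out libraries gave −0.019 to 0.013 for *Pfkm*, −0.015 to 0.031 for *Pfkfb3*, −0.0064 to 0.025 for *Pdha1*, −0.036 to 0.0091 for *G6pdx*, −0.047 to 0.042 for *Pgls*, −0.045 to 0.051 for *Rpia*, −0.12 to 0.18 for *Ankrd37* and −0.51 to 0.17 for *Adm*. The causes were not tested. Low expression limits *Egln3* and *Adm*, which a minimum of 50 removed.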
